A study of Mus musculus with 8 samples.

Results

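The steroid synthesis genes examined were 10 genes, namely Star, Cyp11a1, Cyp17a1, Cyp19a1, Hsd3b1, Hsd17b1, Nr5a1, Nr0b1, Fdx1 and Scarb1, named one by one as the transporters, enzymes, electron carrier and regulators of the pathway. All 10 were found among the 26586 genes listed in the table of counts, and 8 of them passed the filter on low counts that left 13873 genes for testing. The libraries came from primordial follicles isolated on postnatal day 3 from mice of a C57Bl/6 x CBA background. The mito-supplemented group (4 libraries) was the third generation descended from founders that had received extra mitochondria when the oocyte was injected with sperm. The control group (4 libraries) was made up of mice of the same age that the study calls controls. For litter size the study names naturally conceived colony mice as controls, and it does not give the ancestry of the controls sequenced. Neither group is described as descended from oocyte injection, embryo culture, vitrification and embryo transfer without added mitochondria. These steps and the added mitochondria therefore cannot be told apart. The amplified libraries were read as single reads of 75 bases, and the titles call the libraries biological replicates while the study counts 4 mice in each group. No source used here says that these came from separate litters, so p values measure the spread between these samples. By the first part of the label code, control replicates 1 and 2 share a code, as do control replicates 3 and 4 and mito-supplemented replicates 1 to 3, while mito-supplemented replicate 4 alone has its own. What this code stands for is not stated, and if it marks families, each group of 4 holds 2.

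Steroid hormones are made from cholesterol. The StAR protein moves cholesterol to the inner mitochondrial membrane, CYP11A1 cuts its side chain there to give pregnenolone with electrons passed on by ferredoxin, and the enzymes that follow turn pregnenolone into progesterone, androgens and estrogens. In the ovary this capacity is known from the theca and granulosa cells of growing follicles and from the corpus luteum, whereas a primordial follicle consists of an oocyte and a single layer of flat pregranulosa cells.

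Depth came to 17658559, 13917412, 18219362 and 10370045 counts in control replicates 1 to 4. In mito-supplemented replicates 1 to 4 it came to 19760763, 13370911, 16116434 and 13276462 counts. Genes named as ribosomal RNA took 23.0%, 41.3%, 40.6% and 75.3% of the control counts and 20.2%, 45.6%, 36.4% and 44.0% of the mito-supplemented counts. Control replicate 4 therefore held 2559876 counts on all other genes, the fewest of the 8 libraries. Levels are given in CPM, which are counts scaled to a common library size, here with TMM factors. The TMM factor was 0.489 in control replicate 4 and between 0.909 and 1.39 in the other 7 libraries. A factor under 1 raises the CPM above those from total counts alone. A count of 0 allows up to 3 counts, which is 0.592 CPM in control replicate 4 and between 0.123 and 0.238 CPM in the other 7 libraries, and such a limit covers counting error only, because reads from amplified cDNA do not each stand for a molecule.

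A set of 3 libraries stood apart in red cell genes, and the same 3 were highest in macrophage and leukocyte markers. The 8 matched genes of the red cell list summed to 4116 CPM in control replicate 2, 2728 CPM in control replicate 3 and 5081 CPM in mito-supplemented replicate 1, against 14.2 to 80.1 CPM in the other 5 libraries. Slc4a1, the anion exchanger of red cells, had the highest level of the list at 187 CPM per kilobase, and the hemoglobin genes Hba-a1, Hba-a2 and Beta-s, chosen after their values were seen, did not pass the filter. For the fold changes and list medians printed here, the value without these 3 libraries stands beside them where it differs by over 1.5 times. That fit leaves only control replicates 1 and 4 against mito-supplemented replicates 2, 3 and 4. Of these controls, replicate 4 has the fewest counts outside ribosomal RNA and replicate 1 the highest sum of oocyte markers.

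The labelled cell type was checked against its markers. Oocyte markers summed to 2364, 169, 122 and 484 CPM in control replicates 1 to 4 and to 274, 156, 537 and 88.0 CPM in mito-supplemented replicates 1 to 4, with Dppa3 the most abundant at 106 CPM per kilobase, and all 12 had counts. Pregranulosa markers summed to 302, 191, 306 and 950 CPM in controls and to 572, 1393, 843 and 1419 CPM in mito-supplemented libraries, with Rspo1 the most abundant at 52.4 CPM per kilobase. Markers of both cell types of a primordial follicle were thus present in all 8 libraries, and so were markers of other ovarian cells, which are described after the genes of the pathway.

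Star, on chromosome 8 (25806555 to 25815982 in GRCm38, plus strand), had 16.4, 21.1, 16.2 and 6.12 CPM in control replicates 1 to 4 and 30.8, 36.1, 21.1 and 58.8 CPM in mito-supplemented replicates 1 to 4. All 4 mito-supplemented values were above all 4 control values, though mito-supplemented replicate 3 was above control replicate 2 by less than 0.1 CPM, and the lowest value was that of control replicate 4, from 31 counts. The mean level was 14.96 ± 6.31 CPM in controls, against 36.7 ± 16.0 CPM in mito-supplemented libraries (SD, n = 4 each; exact permutation test, two-sided, p = 0.0286, below which a test of 4 against 4 cannot go). Its log2 fold change in edgeR's quasi-likelihood test, the edgeR test used throughout, was 1.29 (standard error, SE, 0.48), with an unadjusted p of 0.0229 and an adjusted p of 0.626 over all genes tested. Over fits without 1 library each, the log2 fold change was between 0.99, when mito-supplemented replicate 4 was left out, and 1.51, when replicate 3 of that group was, and without the 3 libraries high in red cell genes it was 1.79. In bulk counts, fewer cells of a type and less RNA per cell cannot be told apart, here and for the genes that follow.

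Cyp11a1, the side chain cleavage enzyme on chromosome 9 (58006411 to 58027023, plus strand), had 2.26, 4.04, 0.915 and 1.58 CPM in control replicates 1 to 4, from 55, 51, 16 and 8 counts. In mito-supplemented replicates 1 to 4 it had 1.46, 0.485, 1.81 and 9.53 CPM, from 30, 7, 40 and 137 counts. The groups overlapped, and mito-supplemented replicate 4 alone was above all controls. The log2 fold change was 0.59 (SE 1.00, adjusted p = 0.867 in the edgeR test), and leaving out mito-supplemented replicate 4 gave -0.78. Leaving out control replicate 2 or 3 gave 1.06 or 0.33, leaving out mito-supplemented replicate 2 gave 0.95, and it was 1.05 without the 3 libraries high in red cell genes. A stretch of 145 bases of its exons overlaps those of the long noncoding RNA gene Gm17322 on the same strand, which the table does not list.

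RefSeq (GRCm38.p6) promoter windows, from 250 bases before to 50 bases after a start, were in the table used here for 5 of the 10 genes, 8 windows in all. The table used here had no entry for Star, Cyp17a1, Hsd17b1, Nr5a1 and Scarb1. The windows were searched on both strands for CAAGGNCA, the letters bound by NR5A receptors such as the product of Nr5a1, for AGATAA and TGATAA of GATA factors, and for TATAAA of the TATA box. Shown are the windows of Cyp11a1, the first enzyme of the pathway, and the one window of the 8 that holds CAAGGNCA, the first of Cyp19a1, all on chromosome 9, at chr9:57997774-57998073 (plus strand), chr9:58014702-58015001 (plus strand) and chr9:54268115-54268414 (minus strand). Capitals mark the match, TGGCCTTG, which reads CAAGGNCA on the other strand.
Cyp11a1 promoter 1: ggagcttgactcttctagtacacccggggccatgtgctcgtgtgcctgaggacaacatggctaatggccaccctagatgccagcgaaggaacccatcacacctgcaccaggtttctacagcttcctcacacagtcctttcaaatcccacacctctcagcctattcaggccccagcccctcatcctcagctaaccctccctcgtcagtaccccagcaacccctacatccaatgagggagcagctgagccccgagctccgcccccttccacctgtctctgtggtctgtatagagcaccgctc
Cyp11a1 promoter 2: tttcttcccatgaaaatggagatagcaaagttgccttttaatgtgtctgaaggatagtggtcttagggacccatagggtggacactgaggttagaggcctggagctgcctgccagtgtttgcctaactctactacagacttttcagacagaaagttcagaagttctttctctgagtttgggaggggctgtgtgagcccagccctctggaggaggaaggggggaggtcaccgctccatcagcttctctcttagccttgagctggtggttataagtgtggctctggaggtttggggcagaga
Cyp19a1 promoter 1: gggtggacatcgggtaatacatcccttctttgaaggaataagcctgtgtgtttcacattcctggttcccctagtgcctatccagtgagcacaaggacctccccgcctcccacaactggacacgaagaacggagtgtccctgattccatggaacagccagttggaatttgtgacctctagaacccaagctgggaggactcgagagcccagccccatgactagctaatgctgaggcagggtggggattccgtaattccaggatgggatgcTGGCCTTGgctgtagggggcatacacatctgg
The windows follow RefSeq starts, and those of Cyp11a1 do not cover the start of the GENCODE gene given above, since window 1 lies before it and window 2 inside the gene. Neither window of Cyp11a1 held any of the motifs. The match in Cyp19a1 promoter 1 began at position 19, with the RefSeq start counted as position 1. This window lies wholly before the start of the GENCODE gene, which is at 54268110 on the minus strand. The TATA letters were in Cyp19a1 promoters 2 and 3 and in the Nr0b1 promoter, and the GATA letters in the promoters of Hsd3b1 and Fdx1. Of all 32851 promoter windows, 6.71% held the NR5A letters, 18.6% the GATA letters and 13.6% the TATA letters. A match is a description of letters, and no binding was measured here.

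Fdx1, the ferredoxin that hands electrons to CYP11A1, had 2.17, 0.951, 3.77 and 11.4 CPM in control replicates 1 to 4. In mito-supplemented replicates 1 to 4 it had 5.14, 4.09, 10.5 and 6.12 CPM. With TMM factors, control replicate 4 was above all other libraries, and the other 3 control libraries were below all mito-supplemented libraries. By total counts alone, the highest control value was 5.59 CPM, within the mito-supplemented range of 4.41 to 14.4 CPM. The log2 fold change was 0.52 (SE 0.80, adjusted p = 0.856 in the edgeR test), and it was 1.51 without control replicate 4 and 0.05 without the 3 libraries high in red cell genes. Leaving out control replicate 1 or 2 gave 0.31 or 0.18, and leaving out mito-supplemented replicate 3 gave 0.20.

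Hsd3b1, which turns pregnenolone into progesterone, lies on chromosome 3 (98852194 to 98859794, minus strand). It had 103, 21.4, 104 and 227 CPM in control replicates 1 to 4 and 20.6, 17.9, 119 and 23.1 CPM in mito-supplemented replicates 1 to 4. Control replicates 1, 3 and 4 and mito-supplemented replicate 3 were high, the other 4 libraries were low, and the groups overlapped. The mean was 114 ± 84.6 CPM in controls, against 45.2 ± 49.3 CPM in mito-supplemented libraries (SD, n = 4 each; exact permutation test, two-sided, p = 0.257). The log2 fold change was -1.33 (SE 0.79, adjusted p = 0.686 in the edgeR test), the only one below 0 among the 8 tested, and over single libraries left out it lay between -2.44, when mito-supplemented replicate 3 was left out, and -0.72, when control replicate 4 was. Its unadjusted p in the edgeR test was 0.121 with all libraries, 0.00686 when mito-supplemented replicate 3 was left out and 0.0405 when control replicate 2 was (log2 fold change -1.68), with an adjusted p between 0.5 and 0.971 over the alternatives. Of its 1851 read-length words, 25 (1.35%) also occur in transcripts of Gm12431, and 0 in those of Hsd3b2, Hsd3b3 or Hsd3b6.

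**Figure D1:**
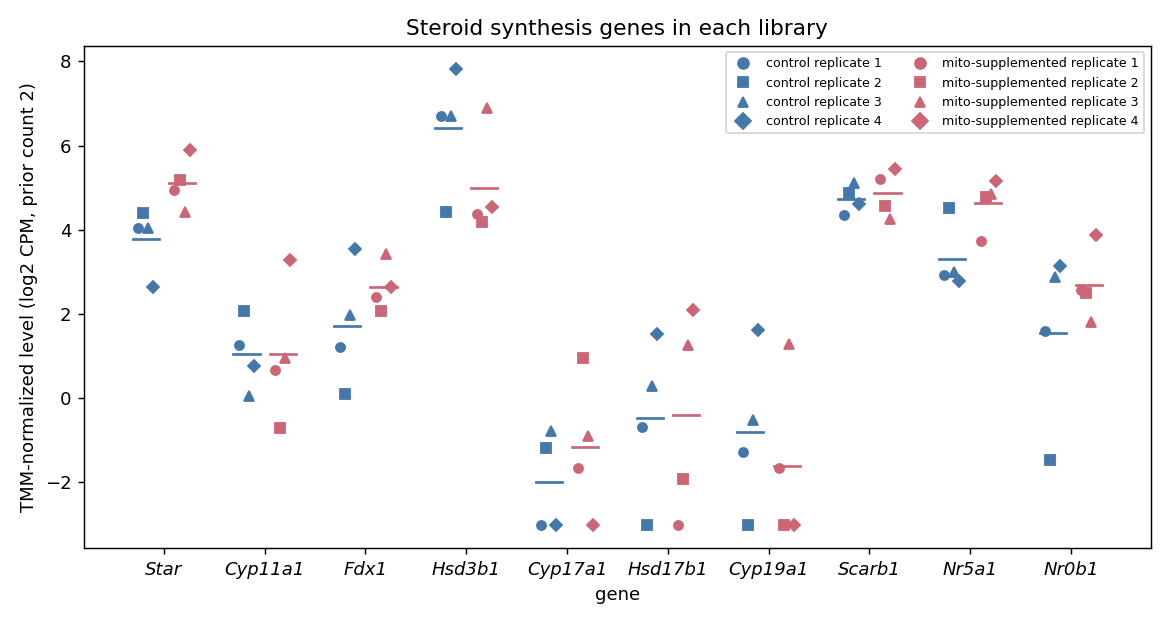
TMM-normalized level of each of the 10 genes (vertical axis, log2 CPM with a prior count of 2) in the 8 libraries, with control in blue, mito-supplemented in red, a symbol for each replicate number and a bar at each group mean. Star separates the groups, Hsd3b1 splits into high and low libraries within both groups, and Cyp17a1, Hsd17b1 and Cyp19a1 reach counts of 0.

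Cyp17a1, which leads to androgens, and Cyp19a1, the aromatase that makes estrogens, did not pass the filter. Cyp17a1 had 0, 4, 8 and 0 counts in control replicates 1 to 4 and 4, 26, 9 and 0 counts in mito-supplemented replicates 1 to 4. Cyp19a1 had 7, 0, 10 and 15 counts in controls and 4, 0, 51 and 0 counts in mito-supplemented libraries. With TMM factors, Cyp19a1 was highest in control replicate 4, at 2.96 CPM, and mito-supplemented replicate 3 followed at 2.31 CPM. This order was reversed by total counts alone, where the highest mito-supplemented value was 3.16 CPM and the highest control value 1.45 CPM. The mean of Cyp19a1 with TMM factors was 0.955 ± 1.36 CPM for the control group, against 0.627 ± 1.13 CPM for the mito-supplemented group (SD, n = 4 each). Both genes were at 0 in 3 of the 8 libraries, their groups overlapped, and no difference was found at these counts (exact permutation test, two-sided, p = 0.571 for each). Hsd17b1, which reduces estrone to estradiol, had 12, 0, 19 and 14 counts in controls and 0, 2, 50 and 59 counts in mito-supplemented libraries. Mito-supplemented replicates 3 and 4 were the highest in counts and replicate 1 of the same group was at 0, so that the groups overlapped. In CPM with TMM factors, mito-supplemented replicate 4 was highest at 4.10, followed by control replicate 4 at 2.76 and mito-supplemented replicate 3 at 2.27. The log2 fold change of Hsd17b1 was 0.63 (SE 1.61, adjusted p = 0.910 in the edgeR test), which became -0.33 when mito-supplemented replicate 4 was left out and 1.62 when control replicate 4 was. Leaving out control replicate 1 or 2 gave 0.41 or 0.20, and leaving out mito-supplemented replicate 1 or 2 gave 1.07 or 1.01.

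Scarb1, the receptor that takes up cholesterol from high density lipoprotein, had 20.1, 29.2, 34.4 and 24.3 CPM in control replicates 1 to 4. In mito-supplemented replicates 1 to 4 it had 36.6, 23.5, 18.8 and 43.5 CPM. The highest and the lowest of the 8 values were both from mito-supplemented libraries, and the groups overlapped. Its log2 fold change was 0.18 (SE 0.39, adjusted p = 0.895 in the edgeR test), -0.01 without mito-supplemented replicate 4 and -0.46 in limma-voom with sample quality weights. It was 0.08 and 0.32 without control replicates 1 and 3, and 0.10, 0.29 and 0.38 without mito-supplemented replicates 1, 2 and 3, and also 0.38 without the 3 libraries high in red cell genes.

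Nr5a1 encodes SF-1, a nuclear receptor that turns on many genes of steroid synthesis, and lies on chromosome 2 (38692656 to 38714542, minus strand). It had 7.51, 22.9, 7.78 and 6.71 CPM in control replicates 1 to 4 and 13.2, 27.4, 28.7 and 35.3 CPM in mito-supplemented replicates 1 to 4. Control replicates 1, 3 and 4 were below all mito-supplemented libraries, while control replicate 2 was above mito-supplemented replicate 1, so that the groups overlapped. The mean was 11.2 ± 7.80 CPM in controls, against 26.1 ± 9.31 CPM in mito-supplemented libraries (SD, n = 4 each; exact permutation test, two-sided, p = 0.0571). The log2 fold change was 1.22 (SE 0.53), with an unadjusted p of 0.0457 and an adjusted p of 0.642 in edgeR's quasi-likelihood test. Leaving out control replicate 2 gave 1.83, and it was 2.12 without the 3 libraries high in red cell genes.

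Nr0b1 encodes DAX-1, an orphan receptor that represses SF-1. It had 2.87, 0.238, 7.21 and 8.68 CPM in control replicates 1 to 4 and 5.82, 5.47, 3.36 and 14.5 CPM in mito-supplemented replicates 1 to 4. Control replicate 2, with 3 counts, was the lowest library and mito-supplemented replicate 4 the highest, and the groups overlapped. The log2 fold change was 0.62 (SE 0.92, adjusted p = 0.850 in the edgeR test), with 0.08 when mito-supplemented replicate 4 was left out, 0.23 without control replicate 2 and 1.08 without control replicate 4.

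Levels of different genes were compared per kilobase of exon. Hsd3b1 stood first at 42.8 ± 39.8 CPM per kilobase over the 8 libraries, Star followed at 6.28 ± 3.93 and Nr5a1 at 4.41 ± 2.66 CPM per kilobase (SD, n = 8). Hsd3b1 was above Star in 7 of 8 libraries, the exception being mito-supplemented replicate 4, and Star was above Nr5a1 in 5 of 8. Scarb1 (3.39 CPM per kilobase), Nr0b1 (3.33) and Fdx1 (1.78) came next, with Nr5a1 above Scarb1 in 4 of 8 libraries and Scarb1 above Nr0b1 in 5 of 8, so that the order from Star to Nr0b1 was not larger than the spread between libraries. Hsd17b1 (1.01 CPM per kilobase), Cyp11a1 (0.574), Cyp19a1 (0.175) and Cyp17a1 (0.143) were lowest, with Hsd17b1 above Cyp11a1 in 5 of 8 libraries. With the longest transcript as the length in place of all exons, Scarb1 was at 9.31 CPM per kilobase and second in the order. Of the counts of the 10 genes, Hsd3b1 held 66.4%, 21.4%, 58.8% and 77.8% in control replicates 1 to 4, where mito-supplemented replicates 1 to 4 had 18.1%, 15.4%, 57.1% and 11.8%.

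**Figure D2:**
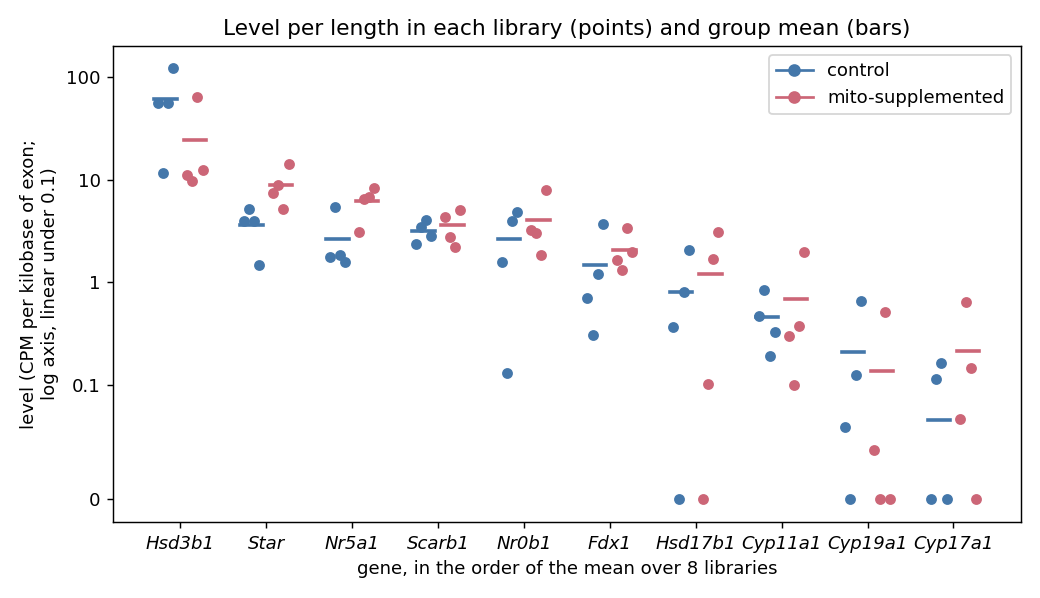
Level of each gene in CPM per kilobase of exon (vertical axis, logarithmic and linear under 0.1), with a point for each library and a bar at each group mean, in the order of the mean over 8 libraries. Hsd3b1 is highest and its points spread from 9.67 to 122 CPM per kilobase, while Cyp19a1 and Cyp17a1 are lowest with points at 0.

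The log2 ratio of Star to Hsd3b1 per kilobase was -3.79 ± 2.12 in controls and -1.04 ± 1.77 in mito-supplemented libraries (SD, n = 4 each; exact permutation test, two-sided, p = 0.0571), and the groups overlapped. Among the 28 pairs of the 8 tested genes, 3 had a Pearson correlation over the 8 libraries with an unadjusted p under 0.05 and 0 had an adjusted p under 0.05 (exact permutation test of pairings). Star and Hsd3b1 had r = -0.824 (exact permutation p = 0.00645, adjusted p = 0.181) and rho = -0.690 (exact permutation p = 0.0694, adjusted p = 0.431), and r = -0.805 without the 2 libraries farthest from the median of Star. Within groups, as deviations from the group means, their r was -0.765. Star and Nr5a1 had r = 0.778 (exact permutation p = 0.0134, adjusted p = 0.188) and rho = 0.857 (exact permutation p = 0.0107, adjusted p = 0.300), with r = 0.605 without the 2 farthest libraries and 0.522 within groups. Nr0b1 and Fdx1 had r = 0.756 (exact permutation p = 0.0327, adjusted p = 0.306) and rho = 0.643 (exact permutation p = 0.0962, adjusted p = 0.449), with r = 0.357 without the 2 farthest libraries, on which the relation rested, and 0.709 within groups.

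The genes most like Star over the 8 libraries, by Pearson r of log2 CPM among all genes tested, were Ulk3 (r = 0.968, rho = 1.000), Pde10a (0.964, 0.976), Fhit (0.964, 0.929), D330022K07Rik (0.962, 0.952) and Thap3 (0.955, 0.976). They are the top of 13873 ranked genes, so no p is given, and without the 2 libraries farthest from the median of Star their r was between 0.774 and 0.942. Their log2 fold changes were between 2.08 and 2.78, so that the likeness includes the difference between the groups. The genes most like Cyp11a1 were Glyr1 (r = 0.927, rho = 0.952), Actr10 (0.921, 0.976), 2810432L12Rik (0.906, 0.905), Tpsab1 (0.885, 0.810) and Ndufb10 (0.870, 0.5). For Ndufb10 the likeness rested on the 2 farthest libraries, with r = -0.158 without them.

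Among the 8 genes tested, 0 were called in edgeR's quasi-likelihood test at an adjusted p under 0.05 and a log2 fold change of at least 1 in size, beside 0% of all 13873 genes, where 1069 genes had an unadjusted p under 0.05. At an unadjusted p under 0.05, 2 of the 8 were higher in mito-supplemented libraries, Star and Nr5a1, beside 5.31% of all genes, and 0 were lower, beside 2.40%. The 2 higher became 1 when control replicate 1, 3 or 4 or mito-supplemented replicate 2 or 3 was left out, and 0 when mito-supplemented replicate 4 was. The 0 lower became 1, Hsd3b1, when control replicate 2 or mito-supplemented replicate 3 was left out. The likelihood ratio test of edgeR and DESeq2 called 0 of the 8 genes, beside 0.418% and 1.03% of all genes, and limma-voom with sample quality weights called 1, Nr5a1, beside 18.6% (58, 141 and 2578 genes). Of the 8, 1 gene, Star, had groups that did not overlap with mito-supplemented libraries higher, beside 3.00% of all genes, and 0 had them lower, beside 2.03%. In direction, 7 of the 8 log2 fold changes were above 0, and 4 of the 8 without mito-supplemented replicate 4, beside 44.9% of all genes. The median of the 8 was 0.61 and that of all genes -0.10, a gap of 0.70, and without mito-supplemented replicate 4 the gap was 0.13. It was 0.40, 0.28 or 1.14 when control replicate 1, 2 or 4 was left out, 0.46 without the 3 libraries high in red cell genes and 1.39 with counts summed by label prefix. The median of the 8 was 0.03 when mito-supplemented replicate 4 was left out, and leaving out control replicate 2 or 4 gave 0.22 or 1.06. Scaling by library size alone moved the median of all genes by 0.27, to 0.17, and the split of genes at an unadjusted p under 0.05 from 736 higher and 333 lower to 1288 and 53, with a gap of 0.98 between the medians.

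**Figure D3:**
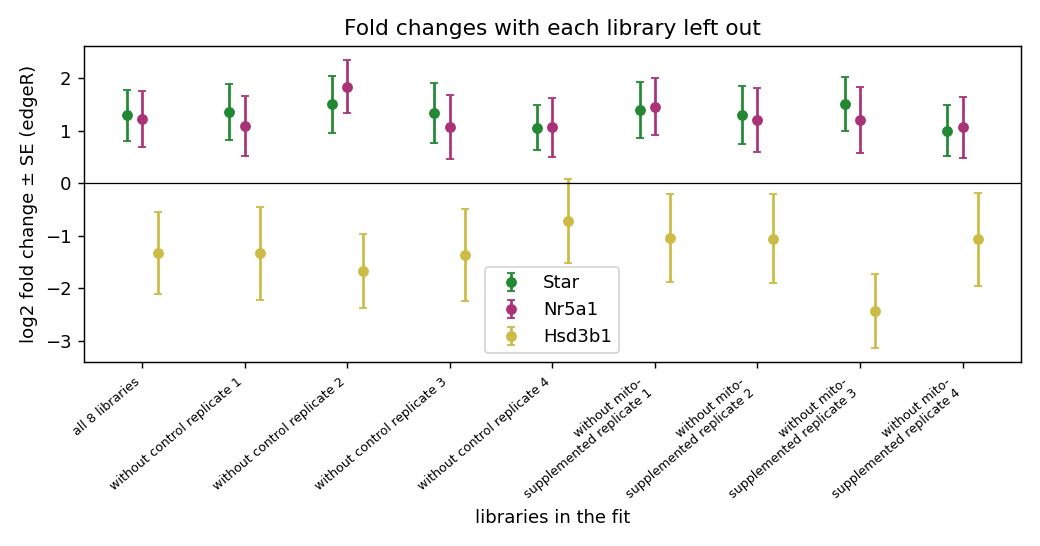
Log2 fold change of Star, Nr5a1 and Hsd3b1 (vertical axis, edgeR's quasi-likelihood fit, bars are standard errors) with all 8 libraries and with each library left out (horizontal axis). Star stays between 0.99 and 1.51 and Nr5a1 between 1.06 and 1.83, while Hsd3b1 moves from -2.44 to -0.72.

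The other genes of the pathway were taken from 4 lists, and in each of them 0 genes were called in the edgeR test. Their counts are read beside all genes tested, of which 5.31% were higher and 2.40% lower at an unadjusted p under 0.05, 44.9% were above 0 in log2 fold change, and the median was -0.10. Of the list of other steroid enzymes, 26 of 27 genes were found and 19 tested, 1 of which was higher at an unadjusted p under 0.05 and 0 lower, with a median log2 fold change of 0.28 and 12 of 19 above 0. The median was 0.46 or 0.49 when control replicate 1 or 4 was left out and 0.17 without the 3 libraries high in red cell genes. Hsd17b11, a dehydrogenase of the same family as Hsd17b1, had 2.05, 1.35, 6.63 and 1.18 CPM in controls, against 7.28, 9.49, 6.67 and 14.9 CPM in mito-supplemented libraries, and the groups did not overlap. Its log2 fold change was 1.75 (SE 0.72, adjusted p = 0.636 in the edgeR test). For Fdxr, the reductase that passes electrons to ferredoxin, the log2 fold change was 1.49 (SE 0.70), and for Hsd17b12 it was 0.91 (SE 0.59), both with overlapping groups. That of Hsd17b12 was 1.62 without control replicate 1, and that of Hsd17b11 was 2.63 when control replicate 3 was left out and 2.67 without the 3 libraries high in red cell genes. Hsd17b10 had the highest level of the list at 23.6 CPM per kilobase. Other 3beta-hydroxysteroid dehydrogenases were chosen after their values were seen. Hsd3b2 and Hsd3b3 had at most 4 and 16 counts in any library and did not pass the filter, and Hsd3b6 had between 0 and 358 counts. Cyp21a1 of the adrenal pathway, also chosen after its values were seen, had 13 counts in mito-supplemented replicate 3 and 0 in the other 7 libraries.

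All 23 genes of cholesterol synthesis were tested, 0 were higher and 2 lower at an unadjusted p under 0.05 (5.31% and 2.40% of all genes), and the median log2 fold change was -0.39 with 5 of 23 above 0 (44.9% of all genes). The median was -0.22 when control replicate 3 was left out and -0.15 without the 3 libraries high in red cell genes. Pmvk, a kinase of the mevalonate pathway, had 12.9, 17.9, 11.2 and 6.12 CPM in controls, against 3.40, 2.42, 5.54 and 5.28 CPM in mito-supplemented libraries. Fdft1, squalene synthase and the gene with the highest level of the list at 20.2 CPM per kilobase, had 274, 64.5, 79.9 and 85.3 CPM in controls, against 60.9, 33.7, 60.1 and 23.2 CPM in mito-supplemented libraries. The groups of both genes did not overlap, with log2 fold changes of -1.53 (SE 0.55) for Pmvk and -1.50 (SE 0.54) for Fdft1 and an adjusted p of 0.626 for each in edgeR's quasi-likelihood test. For Srebf2, a transcription factor that activates the cholesterol pathway, the log2 fold change was -1.05 (SE 0.59) with overlapping groups. That of Fdft1 was -0.76 without control replicate 1 and -2.17 without the 3 libraries high in red cell genes. That of Srebf2 was -0.65 without control replicate 2 and 0.16 without the 3 libraries high in red cell genes. With scaling by library size alone 0 of the 23 genes had an unadjusted p under 0.05.

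For cholesterol uptake, storage and transport, 19 of 20 genes were tested, 2 were higher and 0 lower at an unadjusted p under 0.05, and the median log2 fold change was 0.46. Leaving out control replicate 2 or 3 gave a median of 0.27 or 0.30, and leaving out mito-supplemented replicate 3 or 4 gave 0.30 or 0.27. Soat1, which stores cholesterol as ester, had 126, 44.1, 45.3 and 152 CPM in controls, against 177, 273, 223 and 305 CPM in mito-supplemented libraries, with no overlap of the groups. Its log2 fold change was 1.41 (SE 0.46, adjusted p = 0.626 in the edgeR test), and that of Apoe, a lipoprotein of cholesterol transport, was 1.56 (SE 0.58) with groups that overlapped. For Nr1h2, a sterol-sensing receptor, it was -1.15 (SE 0.65), or -0.76 when mito-supplemented replicate 4 was left out and -1.81 without the 3 libraries high in red cell genes, and Vdac1 had the highest level of the list at 34.3 CPM per kilobase.

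Of the regulators of steroid genes, 24 of 26 were tested, 3 were higher and 0 lower at an unadjusted p under 0.05 (5.31% and 2.40% of all genes), and the median log2 fold change was 0.44 with 18 of 24 above 0 (44.9% of all genes). It was 0.20 when control replicate 2 was left out, 0.95 when control replicate 4 was, 0.28 when mito-supplemented replicate 4 was and 0.27 without the 3 libraries high in red cell genes. Nr4a1, a nuclear receptor that is induced quickly by trophic hormones, had 6.97, 2.54, 7.38 and 4.93 CPM in controls, against 8.01, 22.4, 28.2 and 70.5 CPM in mito-supplemented libraries. The groups of Nr4a1 did not overlap, and its log2 fold change was 2.56 (SE 0.67, adjusted p = 0.545 in the edgeR test). For Runx1 the log2 fold change was 1.00 (SE 0.38) without overlap of the groups, and for Gata6 it was 1.26 (SE 0.54) with overlap. That of Gata6 was 2.14 without control replicate 4, and without the 3 libraries high in red cell genes that of Runx1 was 1.71 and that of Gata6 0.84. Wt1 had the highest level of the list at 39.7 CPM per kilobase. Of the 24 tested regulators, 5, Wt1 among them, are also on the pregranulosa marker list and 1 is on the theca and stroma list. The gonadotropin receptor genes Fshr and Lhcgr, chosen after their values were seen, had 53 and 103 counts over the 8 libraries, and Fshr did not pass the filter.

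**Figure D4:**
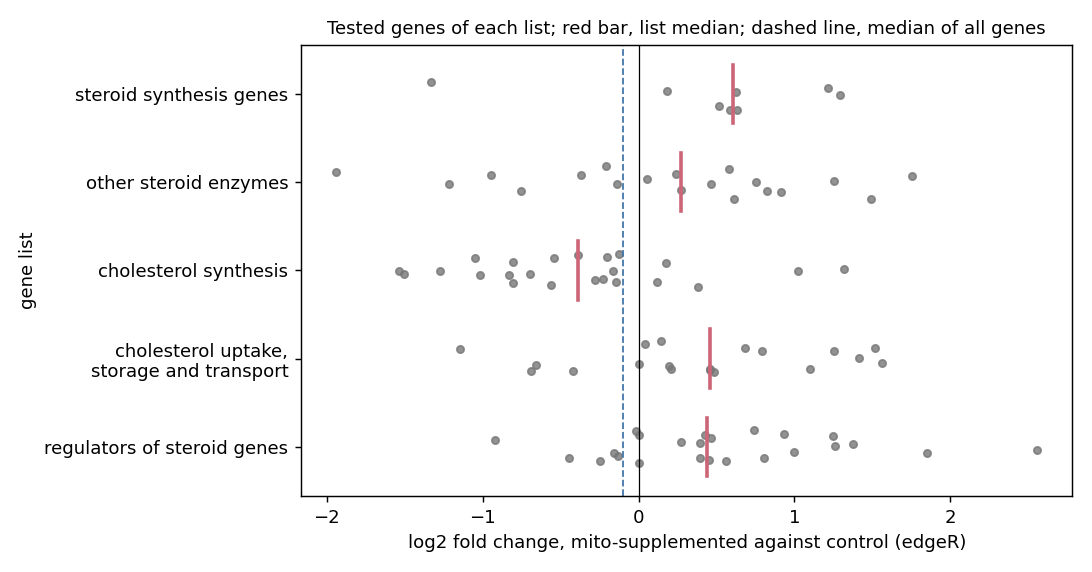
Log2 fold change of each tested gene (points) of the steroid synthesis genes and the 4 other lists, with the list median as a red bar and the median of all genes as a dashed line. The medians are 0.61, 0.28, -0.39, 0.46 and 0.44 from top to bottom, and genes lie on both sides of 0 in every list.

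Marker lists of the cell types that the follicle preparation could hold are given with their values, and their counts are read beside all genes tested, of which 44.9% were above 0 in log2 fold change and, at an unadjusted p under 0.05, 5.31% were higher and 2.40% lower. Pregranulosa markers had a median log2 fold change of 0.96, with 9 of 11 tested genes above 0 (44.9% of all genes). At an unadjusted p under 0.05, 3 were higher (5.31% of all genes), Amhr2, Lgr5 and Rspo1, chosen after their values were seen. Of others chosen in the same way, Kitl (-0.40) and Esr2 (-0.02) were below 0 in log2 fold change. Foxl2 was at 0.56 (SE 0.67) with overlapping groups, and Amh did not pass the filter. The summed level of the pregranulosa markers was 437 ± 346 CPM in controls, against 1057 ± 419 CPM in mito-supplemented libraries (SD, n = 4 each; exact permutation test, two-sided, p = 0.0857). Oocyte markers had a median of -1.65, with 0 of 11 above 0 and 1 lower at an unadjusted p under 0.05 (2.40% of all genes), Kit, chosen after its values were seen. The oocyte median rested on control replicate 1, without which it was 0.22, and it was -2.47 without the 3 libraries high in red cell genes. The pregranulosa median was 1.87 without control replicate 4 and 0.56 without the 3 libraries high in red cell genes. Control replicate 1, the library with the highest oocyte sum, had 103 CPM of Hsd3b1 and 16.4 CPM of Star.

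Surface epithelium markers summed to 122, 67.4, 49.8 and 453 CPM in control replicates 1 to 4 and to 346, 987, 420 and 784 CPM in mito-supplemented replicates 1 to 4, with Aldh1a2 the most abundant at 33.9 CPM per kilobase. All 10 were above 0 in log2 fold change (44.9% of all genes), and 7 of them were higher and 0 lower at an unadjusted p under 0.05 (5.31% and 2.40% of all genes). Theca and stroma markers summed to 366, 491, 701 and 2273 CPM in controls and to 989, 1069, 2600 and 2277 CPM in mito-supplemented libraries, with Col1a1 the most abundant at 54.3 CPM per kilobase. Of the 11 tested, 11 were above 0 (44.9% of all genes) and 0 were higher or lower at an unadjusted p under 0.05 (5.31% and 2.40% of all genes). The theca marker Insl3, chosen after its values were seen, had 1 count over all libraries. The median log2 fold change was 1.80 for surface epithelium and 0.79 for theca and stroma, and when control replicate 4 was left out these were 3.02 and 1.61, while without mito-supplemented replicate 3 that of theca and stroma was 0.50. Control replicate 4 was the highest control library in all 3 of the pregranulosa, surface epithelium and stroma sums and the lowest of all libraries in Star. Highest in Star, at 58.8 CPM, was mito-supplemented replicate 4, which also had the highest pregranulosa sum, 1419 CPM, and a surface epithelium sum of 784 CPM.

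Endothelium markers summed to 26.8, 39.96, 53.6 and 219 CPM in controls and to 105, 229, 186 and 203 CPM in mito-supplemented libraries, with Kdr the most abundant at 9.79 CPM per kilobase. Of the 9 tested, 6 were above 0 (44.9% of all genes), and 1 was higher and 0 lower at an unadjusted p under 0.05 (5.31% and 2.40% of all genes). Macrophage and leukocyte markers summed to 12.2, 185, 151 and 33.4 CPM in controls and to 981, 18.4, 34.1 and 23.4 CPM in mito-supplemented libraries. The 3 highest sums were those of the 3 libraries high in red cell genes. Lyz2 was the most abundant at 80.2 CPM per kilobase, and C1qb was at 0 in all libraries. Against the same shares of all genes, 7 of 7 tested were above 0 and 0 passed an unadjusted p of 0.05. The endothelium median of 0.85 became 0.14 when mito-supplemented replicate 3 was left out and 1.56 when control replicate 4 was, and the macrophage and leukocyte median of 1.14 was -1.78 without mito-supplemented replicate 1. Red cell genes had a median of -0.35, which became 0.41 when control replicate 2 was left out, 0.04, 0.07 or 0.06 when mito-supplemented replicate 2, 3 or 4 was, -5.57 when mito-supplemented replicate 1 was and 0.78 without the 3 libraries high in red cell genes, and here too beside those shares 0 of 5 tested were above 0 and 0 passed an unadjusted p of 0.05. Adrenal cortex markers summed to between 14.4 and 148 CPM, and Frem2, the one gene of the list that passed the filter, was the most abundant at 3.72 CPM per kilobase. Frem2 alone averaged 20.8 ± 23.1 CPM in controls, against 77.9 ± 54.8 CPM in mito-supplemented libraries, of list sums of 24.98 ± 20.1 and 78.9 ± 54.2 CPM (SD, n = 4 each; exact permutation test, two-sided, p = 0.0857 for the gene and for the sum). It was higher at an unadjusted p under 0.05, with a log2 fold change of 1.91 (SE 0.78, adjusted p = 0.636 in the edgeR test), or 3.06 when control replicate 4 was left out, and its groups overlapped. The other genes of the list did not pass the filter. Mrap, an accessory protein of the corticotropin receptor, and the receptor gene Mc2r, both chosen after their values were seen, lay the other way. Mrap had 0, 60, 105 and 0 counts in control replicates 1 to 4 and 8, 3, 6 and 0 counts in mito-supplemented replicates 1 to 4. Mc2r had 0, 38, 37 and 0 counts in the controls and 6, 1, 6 and 0 counts in the mito-supplemented libraries. Both were highest in control replicates 2 and 3, which are among the 3 libraries high in red cell genes, and their groups overlapped, with p = 0.429 for each in the exact two-sided permutation test. Of the adrenal enzymes, also chosen after their values were seen, Cyp11b1 and Cyp11b2 had at most 3 counts in any library and Cyp21a1 at most 13. The part of these cell types in the values of Star, Nr5a1 and the other genes was not tested.

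**Figure D5:**
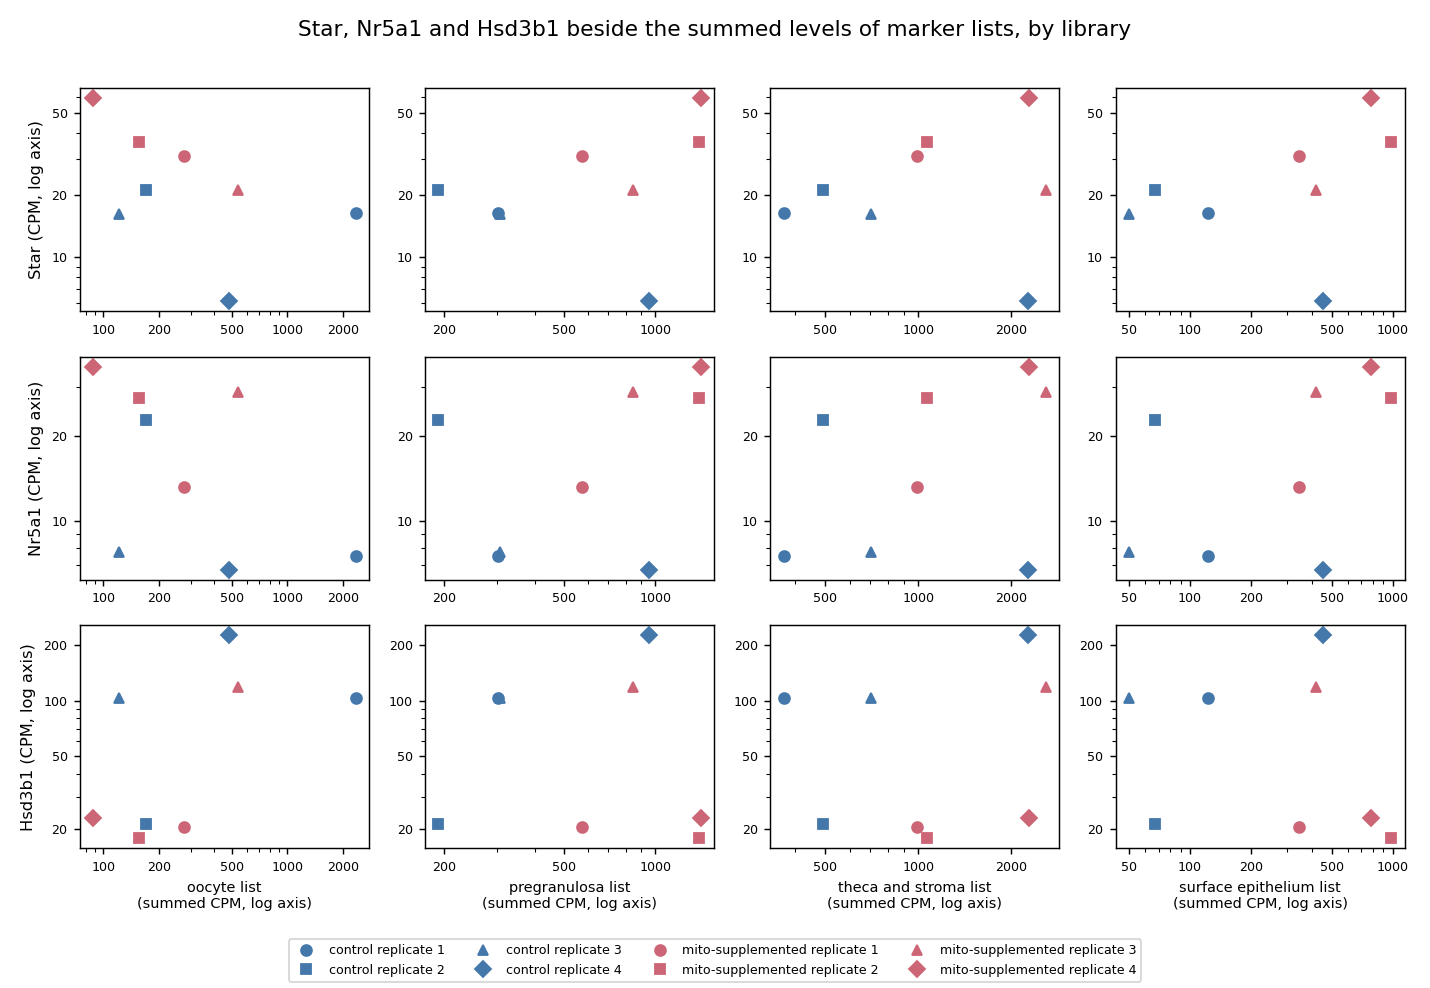
Level of Star, Nr5a1 and Hsd3b1 (vertical axes, CPM, logarithmic) against the summed level of the oocyte, pregranulosa, theca and stroma, and surface epithelium marker lists (horizontal axes, CPM, logarithmic) in the 8 libraries. Control replicate 4 (blue diamond) is low in Star and Nr5a1 and high in Hsd3b1 at stroma and surface epithelium sums like those of mito-supplemented libraries. Mito-supplemented replicates 2 and 4 have the highest pregranulosa and surface epithelium sums and the highest Star, and are low in Hsd3b1.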

How the data were processed

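RNA was extracted from primordial follicles, amplified and sequenced, and the authors used Trim Galore 0.4.4 for trimming, STAR 2.5.3a for mapping to GRCm38 and featureCounts for a count per gene. That unnormalized count per gene symbol is what was deposited. The annotation release and the strand setting are not given in the sources used here, and a further control library, which the authors left out, was not analysed here. Groups and replicate numbers were taken from the sample labels.

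From the counts, edgeR 4.0.16 (R 4.3.3) was used with TMM factors and its default filter on low counts. The edgeR test was the quasi-likelihood one, with group as the sole term and Benjamini-Hochberg adjustment over 13873 genes, and a call needed an adjusted p under 0.05 with a log2 fold change of 1 or more in size. Standard errors (SE) follow from the F statistic. Single values were compared by exact permutation tests over 70 splits, on log2 CPM with a prior count of 2. Alternatives were the likelihood ratio test, DESeq2 1.42.0, limma 3.58.1, other scalings and filters, a replicate block, counts summed by label prefix and each library left out. The script was tested on simulated counts. Gene lengths and positions are from GENCODE M21.

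The members and lists were chosen with earlier results of these data known. The genes named were the 10 members, in each pathway list the 3 with the lowest unadjusted p and the one with the highest level per kilobase, the 5 genes most like Star and Cyp11a1, the most abundant marker of each list and the defining markers at 0. Further names are marked as chosen after their values were seen, or given as background.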

Additional observations from a re-analysis of the deposited data

Results flagged for a closer look

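The gap between the highest or lowest library and its nearest neighbour, over the range of its group, was examined in 22 groups of 4 libraries (the log2 CPM of the 10 genes and the total counts). A library stood far from the other 3 in 2 of them, and chance gives about 1 in 20 groups.

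Hsd3b1 in mito-supplemented replicate 3 reached 6.90 log2 CPM on 2626 counts, where mito-supplemented replicates 1, 2 and 4 had 4.17 to 4.54. Leaving it out took the log2 fold change of Hsd3b1 from -1.33 to -2.44.

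Nr5a1 in control replicate 2 reached 4.53 log2 CPM on 289 counts, where control replicates 1, 3 and 4 had 2.77 to 2.98. This library is one of the 3 with high levels of red cell genes, and leaving it out took the log2 fold change of Nr5a1 from 1.22 to 1.83.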

How the results depend on the processing

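The fit without the 3 libraries high in red cell genes was chosen after seeing the data. The log2 fold changes of Star, Nr5a1, Hsd3b1, Nr0b1 and Fdx1 kept their sign in all 20 alternatives, from 0.76 to 1.79 for Star, 1.06 to 2.12 for Nr5a1, -2.44 to -0.59 for Hsd3b1, 0.08 to 1.08 for Nr0b1 and 0.05 to 1.51 for Fdx1. That of Cyp11a1 (0.59) became -0.22 in limma-voom with sample quality weights and -0.78 without mito-supplemented replicate 4, that of Scarb1 (0.18) became -0.46 and -0.01 under the same changes, and that of Hsd17b1 (0.63) became -0.33 without mito-supplemented replicate 4. With counts summed by label prefix Cyp11a1 was at 1.56 and Hsd17b1 at 1.53, and with the replicate block at 0.04 and 0.20. Over single libraries left out, Cyp11a1 spanned -0.78 to 1.06, Hsd17b1 -0.33 to 1.62 and Scarb1 -0.01 to 0.38. With a prior count of 0.5, the difference in mean log2 CPM was -0.02 for Cyp11a1 (0.01 with a prior count of 2) and -0.01 for Hsd17b1 (0.07). Star had an adjusted p between 0.130 and 0.971 over the alternatives and Nr5a1 between 0.0374, in limma-voom with sample quality weights (log2 fold change 1.36), and 0.971 in edgeR without mito-supplemented replicate 4. For all values here, the cause was not tested.

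The number of genes called, 0, became 58 in the likelihood ratio test, 141 in DESeq2 and 2578 in limma-voom with sample quality weights, and the last held 1 of the 8 genes of steroid synthesis. The 1069 genes at an unadjusted p under 0.05 became 5222 in limma-voom and spanned 572 to 2003 over single libraries left out. The 2 steroid synthesis genes at an unadjusted p under 0.05 became 1 with DESeq2 size factors and spanned 0 to 3 over single libraries left out. The number above 0, 7, spanned 4 to 7 and was 5 in limma-voom, and the median, 0.61, spanned 0.03 to 1.06 and was 1.29 with counts summed by label prefix. The medians of the 4 pathway lists kept their sign in all alternatives, from 0.17 to 0.62 for other steroid enzymes (0.28), -0.63 to -0.15 for cholesterol synthesis (-0.39), 0.27 to 0.80 for uptake, storage and transport (0.46) and 0.20 to 0.99 for regulators (0.44). Of the other named genes, Hsd17b10 (0.46) spanned -0.04 to 0.92 and Vdac1 (0.19) -0.05 to 0.60 over single libraries left out, and without the 3 libraries high in red cell genes Hsd17b10 was at 0.03 and Srebf2 (-1.05) at 0.16.

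Of the marker medians, that of oocyte genes (-1.65) was 1.04 in limma-voom and spanned -2.20 to 0.22 over single libraries left out, above 0 when control replicate 1 was left out. That of macrophage and leukocyte genes (1.14) was -1.24 in limma-voom and spanned -1.78 to 1.40, below 0 when mito-supplemented replicate 1 was left out. With the replicate block it was -0.00. That of red cell genes (-0.35) spanned -5.57 to 0.41, above 0 when control replicate 2 (0.41) or mito-supplemented replicate 2 (0.04), 3 (0.07) or 4 (0.06) was left out, and was 0.78 without the 3 libraries.

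Samples are not paired by replicate number: deviations of the same number correlated at -0.24, -0.19, -0.33 and 0.22. With the replicate block 0 genes were called in edgeR's quasi-likelihood test and 981 had an unadjusted p under 0.05, 1 of them among the steroid synthesis genes. The values of Cyp17a1, Cyp19a1 and Hsd17b1 rest on few counts, with 51, 87 and 156 over 8 libraries.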
